A study of Mus musculus with 19 samples.

Results

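Nucleotide excision repair removes bulky lesions from DNA, and 10 of its core genes were followed in the mouse lung: Xpc, Ddb1, Ddb2, Xpa and Ercc1 to Ercc6. They were chosen by name as genes that find, open and cut out a lesion, with earlier results of these data known. An array probe was taken for a gene when the accession in the array design mapped to its symbol in the RefSeq table. This gave 11 probes for 9 of the 10 genes, with 2 probes each for Xpc and Ercc4. All 9 were among the 19328 genes tested, and Ercc6 was not analysed here.

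The lungs came from male mice, 25 weeks old, of transgenic strain 40.6 (the MutaMouse, which carries a reporter transgene for scoring mutations), so all groups share that transgene. The mice were gavaged every day for 28 days with the carcinogen benzo(a)pyrene (BaP), found in smoke and soot, or with vehicle and no BaP as controls. The BaP groups were a low dose of 25, a middle dose of 50 and a top dose of 75 mg/kg/day. Lung pieces were collected 3 days after the end of exposure from 5 controls (mice 1 to 5), 5 mice of the low dose (6 to 10), 4 of the middle dose (12 to 15) and 5 of the top dose (16 to 20). Every mouse had its own array, on which its lung RNA in Cy5 was set against a common reference RNA from 11 mouse cell lines in Cy3, with no dye swap. Values are log2 ratios of lung over reference after background correction and loess normalization within each array, so a difference of 1 between groups is a doubling. In bulk lung, fewer cells of a type and less RNA per cell cannot be told apart.

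BaP is oxidised by cytochrome P450 enzymes to a diol epoxide that forms bulky adducts on guanine, and nucleotide excision repair is the pathway that takes such adducts out. Damage is found across the genome by the XPC complex and by the DDB1 and DDB2 complex, or at stalled RNA polymerase by the proteins of transcription-coupled repair, among them that of Ercc6. The TFIIH complex then opens the DNA, XPA checks the lesion, a nuclease cuts on each side, and polymerases and ligases fill the gap. XPC and DDB2 are known as p53 targets in human cells.

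Control 5 was the library that stood apart from its group. Skeletal muscle markers in it had a mean log2 ratio of 5.95. The other controls had -0.27 to 0.93 and the treated mice -0.73 to 0.15, apart from mouse 13 at the middle dose with 1.62. Mouse 13 and control 5 were the arrays analysed here from their slide. It was the highest control for Xpc, Xpa, Ercc1, Ercc3 and Ercc5 and the lowest for Ercc2 and Ercc4. Without it the rise of Ercc5 at the top dose was 0.49, and 2 members in place of 1 were called at that dose, Ercc5 and Ercc1. The part of this muscle signal in the members' values was not tested.

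Markers of the labelled tissue were high: in controls the mean log2 ratio was 4.61 to 5.06 for alveolar type 2 genes, 6.58 to 7.49 for club cell genes and 4.42 to 4.95 for endothelial genes. Of 16 marker lists, none had groups without overlap between the top dose and controls. Fibroblast markers were at -0.60 to -0.41 in controls and -1.38 to -0.57 at the top dose, and NK cell markers at 0.73 to 1.58 and 0.51 to 0.95. Genes of dividing cells were at -3.49 to -2.78 and -3.50 to -2.81. The part of these markers in the members' values was not tested. The lung signal was well above background for 45.6% to 62.9% of the spots of an array. Slide accounted for more of the first principal component of the ratios (r2 = 0.811) than dose group did (r2 = 0.0673). For component 2 the r2 of slide and dose group was 0.590 and 0.409, and for component 3 it was 0.366 and 0.627.

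Of the 9 genes, Ercc5, which encodes the nuclease that makes the 3′ cut, was the gene that passed the threshold, and it rose at the top dose. A gene was called when its limma p was under 0.05 after Benjamini-Hochberg adjustment across the 19328 genes. At the low dose 0 of the 9 genes were called, where 0.0517% of all genes tested were. At the middle dose 0 of 9 were called, against 1.09% of all genes. At the top dose 1 of 9 was called, a rise, against 4.18% of all genes. In the fit with dose as a number over all 19 arrays 1 of 9 was called, also Ercc5, against 4.66% of all genes. Between the top and the low dose 0 of 9 were called, against 0.564%. The same limma fits gave 0, 1 and 4 of the 9 genes an unadjusted p under 0.05 at the low, middle and top dose, where 7.83%, 12.7% and 17.3% of all genes had one. Between the top and the low dose 4 of 9 had one, beside 6.85% of all genes. Ercc5, Ercc1 and Ercc2 were higher at the top dose (0.35, 0.17 and 0.20) and Ddb2 lower (-0.21). The signal of Ercc2 lay near background.

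The other members lay close to their control levels, and most were slightly above them at the top dose. At the top dose 8 of the 9 were above the control mean and 1 below, with a median difference of 0.16, where 47.9% of all genes were above and their median was -0.01. At the low dose 8 were above and 1 below with a median of 0.07, beside 52.5% of all genes above. At the middle dose 5 were above and 4 below with a median of 0.07, beside 49.6% of all genes above. For 6 of the 9 genes all 5 mice at the top dose lay above the control mean, as they did for 14% of all genes. These counts describe direction, and the differences behind them did not pass the threshold apart from that of Ercc5.

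**Figure D1:**
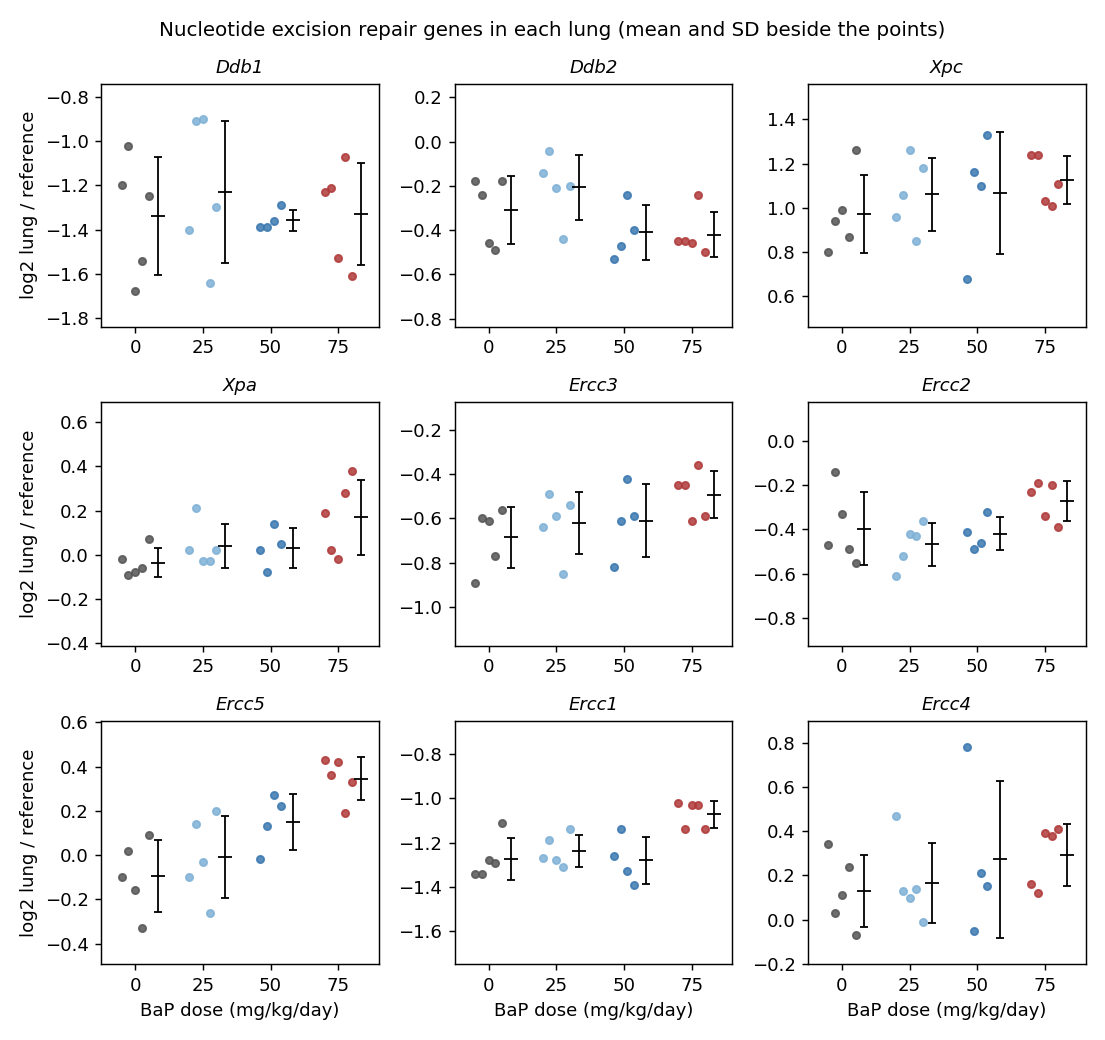
Log2 ratio of lung over reference (y axis) by BaP dose in mg/kg/day (x axis) for the 9 genes, 1 point per mouse, with the mean and SD of each group beside the points; all panels span the same height on the log2 scale. Ercc5 is the panel in which no mouse at the top dose overlaps a control, with 0.19 to 0.43 against -0.33 to 0.09. The share of all genes without such overlap was not counted.

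Ercc5 encodes XPG, the endonuclease that cuts 3′ of the lesion and also stabilises TFIIH at the opened DNA. Its values in controls 1 to 5 were -0.10, 0.02, -0.16, -0.33 and 0.09. In mice 6 to 10 of the low dose they were -0.10, 0.14, -0.03, -0.26 and 0.20. These 2 groups covered nearly the same range.

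In mice 12 to 15 at the middle dose Ercc5 was at -0.02, 0.13, 0.27 and 0.22. In mice 16 to 20 at the top dose it was at 0.43, 0.36, 0.42, 0.19 and 0.33. All 5 of these mice lay above every control, while 1 of the 4 mice at the middle dose lay inside the control range with 0.13 just above it. The group means were -0.10 ± 0.17 (SD, n = 5), -0.01 ± 0.19 (n = 5), 0.15 ± 0.12 (n = 4) and 0.35 ± 0.10 (n = 5) from control to the top dose.

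The rise of Ercc5 at the top dose was 0.44 ± 0.10 (SE) on the log2 scale, which is 1.36-fold (95% interval 1.18 to 1.56, limma adjusted p = 0.0112). The difference was 0.24 (95% interval 0.03 to 0.46, limma adjusted p = 0.309) at the middle dose and 0.09 (-0.11 to 0.29, adjusted p = 0.883) at the low dose, neither past the threshold. Over all doses Ercc5 rose by 0.15 per 25 mg/kg/day (95% interval 0.09 to 0.21, limma adjusted p = 0.00404). The top dose lay 0.35 above the low dose, which did not pass the threshold (limma adjusted p = 0.156).

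On all 19 arrays the lung signal of the Ercc5 spot was well above background, at 37 to 227 intensity units above local background, which is dim. The background offset of 50 units compresses such folds. In the channels taken separately, lung was 0.49 higher at the top dose than in controls and the reference 0.05 higher, so the difference lay in the lung channel. Slides carry arrays of several groups. Control 5 has no top dose lung on its slide and mouse 16 no control, so neither is in the top dose count. On 4 of the 4 slides with both a control and a top dose lung Ercc5 was higher in the treated lung, by 0.17 to 0.75. It was higher on 3 of 3 slides at the middle dose (0.03 to 0.24) and on 3 of 4 at the low dose (-0.00 to 0.36). Xpc, Xpa, Ercc1, Ercc3 and Ercc4 were also higher on 4 of 4 slides at the top dose. The share of all genes with this trait was not counted. With slide as a fixed block the rise of Ercc5 at the top dose was 0.45 (limma adjusted p = 0.00846).

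The value of this rise moved with the normalization more than with any 1 mouse. It was 0.69 with the scanner software's own processed signals and 0.74 when arrays were centred on the median and not by loess, which also moved the median of all genes at this dose to 0.35. Without the 4 arrays that the scanner software's quality report marked for evaluation it was 0.42 and missed the threshold (limma adjusted p = 0.0585). Leaving out 1 mouse at a time gave 0.38 to 0.49, and over 33 alternatives the limma adjusted p was 0.00236 to 0.0585. Of these, leaving out a mouse of the low or middle dose or changing the filter or probe choice could not move the difference from 0.44.

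**Figure D2:**
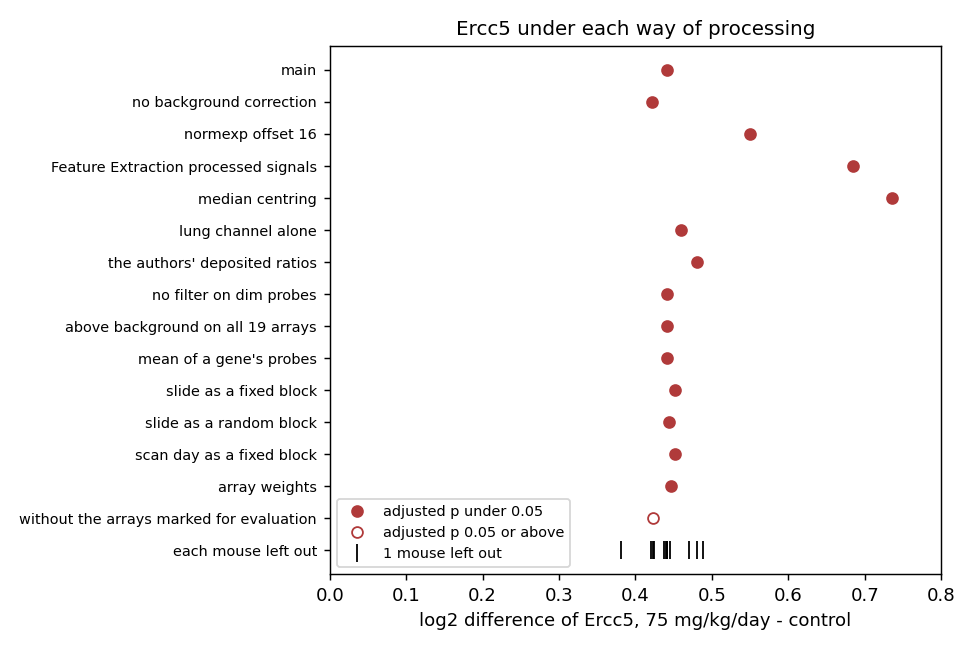
Log2 difference of Ercc5 between mice at the top dose and controls (x axis) under each way of processing (y axis), with filled points where the limma adjusted p was under 0.05, an open point where it was not, and bars for the fits that leave out 1 mouse each. The values run from 0.38 to 0.74 and the open point is the fit without the arrays marked for evaluation, at 0.42.

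The stretch of 250 bases before a start of Ercc5 is shown because it is the member that rose, with those of Gtf2h5 and Hmgn1, further repair genes that were called at the top dose. The sequences are from RefSeq's promoter table for GRCm38.p6, written 5′ to 3′ on the strand of the gene and ending at the base before the start that the table lists. For Ercc5 this start lies inside the span of RefSeq's gene record, which begins further upstream. Capitals mark 3 kinds of letters, each searched on both strands: GCGTG, the core of the AhR element, the DNA site of the receptor that binds BaP; GGGCGG, the GC box; and CCAAT.
Ercc5 (chr1:44147494-44147743, plus strand): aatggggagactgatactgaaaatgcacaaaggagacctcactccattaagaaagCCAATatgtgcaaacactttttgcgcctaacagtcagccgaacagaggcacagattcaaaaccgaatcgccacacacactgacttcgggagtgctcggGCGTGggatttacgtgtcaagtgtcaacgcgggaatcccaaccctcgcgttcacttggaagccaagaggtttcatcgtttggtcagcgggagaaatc
Gtf2h5 (chr17:6079578-6079827, plus strand): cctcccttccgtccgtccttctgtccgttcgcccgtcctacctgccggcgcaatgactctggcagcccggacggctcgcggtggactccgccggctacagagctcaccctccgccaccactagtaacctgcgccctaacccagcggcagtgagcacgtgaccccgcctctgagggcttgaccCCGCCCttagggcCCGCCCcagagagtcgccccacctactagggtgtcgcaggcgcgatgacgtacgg
Hmgn1 (chr16:96127726-96127975, minus strand): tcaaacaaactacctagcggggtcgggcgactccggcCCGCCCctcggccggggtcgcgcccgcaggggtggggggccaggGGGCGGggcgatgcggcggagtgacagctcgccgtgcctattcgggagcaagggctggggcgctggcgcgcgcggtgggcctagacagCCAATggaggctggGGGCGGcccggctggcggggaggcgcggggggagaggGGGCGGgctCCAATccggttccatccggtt

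Ercc5 held 1 GCGTG, whose first base lay 97 bases before the start, and 1 CCAAT, 195 bases before it, and its window was 50% G or C. Gtf2h5 held 2 GC boxes, 68 and 55 bases before this start (the table gives it a second start), and Hmgn1 held 4 GC boxes and 2 CCAAT. No match overlapped another. Of the 32851 promoter entries of this length, 28.2% hold GCGTG, 32.7% GGGCGG and 33.8% CCAAT, so each of these motifs is common.

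Windows of 7 of the 10 genes were searched. Xpc and Ddb2, named above as p53 targets in human cells, were not searched, nor was Ercc3. The counts here therefore say nothing of these genes. Among the 7 searched, Ercc2 and Ercc4 held 2 GCGTG each, Ercc5 and Ercc6 held 1, and Ddb1, Xpa and Ercc1 held 0. The consensus decamer of the p53 site, searched by name with its usual ambiguity, was in 7.13% of all entries and in 0 of these 7 windows. By the same search Cdkn1a held 2 such decamers, 73 and 51 bases before a start, Mdm2 held 1, 186 bases before, and Polk held 1, 231 bases before one of its listed starts and 0 before the other. A match is a stretch of letters in this window, and binding was not measured.

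Among the genes that find the damage, no change passed the threshold at any dose. Xpc encodes the protein that senses the distorted helix and starts global repair. Its values were 0.80, 0.94, 0.99, 0.87 and 1.26 in the controls and 1.24, 1.24, 1.03, 1.01 and 1.11 at the top dose. The groups overlapped because control 5 lay above all 5 treated mice, and the other controls lay below all of them. The differences were 0.09, 0.10 and 0.15 at the low, middle and top dose. At the top dose the 95% interval was -0.09 to 0.39 (limma adjusted p = 0.545), so a rise of 1.31-fold lies at its upper end.

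The second Xpc probe gave larger differences in the same direction, also without passing the threshold. It was 0.18, 0.29 and 0.25 above controls at the low, middle and top dose, with limma adjusted p of 0.805, 0.434 and 0.371 over all probes. For this probe the reference channel was itself 0.15 higher at the top dose than in controls, beside 0.40 in the lung channel.

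Ddb2 encodes the subunit that recognises damage in chromatin. Its values were -0.18, -0.24, -0.46, -0.49 and -0.18 in the controls, and -0.14, -0.04, -0.21, -0.44 and -0.20 at the low dose. They were -0.53, -0.47, -0.24 and -0.40 at the middle dose and -0.45, -0.45, -0.46, -0.24 and -0.50 at the top dose. The groups overlap throughout, and the mice at the low dose were the highest on average.

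The difference of Ddb2 from controls was 0.10 at the low dose, -0.10 at the middle and -0.11 at the top dose (95% interval -0.29 to 0.08, limma adjusted p = 0.577). With median centring it was at 0.07 and 0.29 at the middle and top dose, below the medians to which that scaling moved all genes (0.14 and 0.35). With the lung channel alone it was at 0.0083 and 0.019. Ddb2 was the member with a value below controls at the top dose, and the top dose lay 0.21 lower than the low dose, which did not pass the threshold (limma adjusted p = 0.619). The reference channel of this probe was 0.10 and 0.09 higher at the middle and top dose than in controls, and the lung channel -0.01 and -0.02. Within slides, the difference of Ddb2 at the top dose was -0.32 on the slide of control 1 and mouse 20. Both of these arrays were marked for evaluation. On the other 3 slides with both groups it was 0.00011 to 0.029.

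Ddb1, the scaffold that ties DDB2 to the CUL4 ubiquitin ligase, varied more between mice of 1 group than between groups. It ran from -1.68 to -1.02 in controls and from -1.61 to -1.07 at the top dose. Its differences were 0.11, -0.02 and 0.01 from the lowest to the highest dose, with a 95% interval of -0.30 to 0.32 at the top dose (limma adjusted p = 0.986), and its sign at the middle and top dose changed with the processing.

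Xpa, which checks the lesion and positions the repair proteins, had no called change. Its values were -0.02, -0.09, -0.08, -0.06 and 0.07 in controls and 0.19, 0.02, -0.02, 0.28 and 0.38 at the top dose. Mice 16, 19 and 20 lay above all controls and mice 17 and 18 among them. The difference at the top dose was 0.21 (95% interval 0.04 to 0.37, limma adjusted p = 0.172). At the low and middle dose it was 0.07 and 0.07.

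Ercc3 and Ercc2 encode XPB and XPD, the motor and the helicase of TFIIH that open the DNA. Ercc3 was at -0.89, -0.60, -0.61, -0.77 and -0.56 in controls and at -0.45, -0.45, -0.61, -0.36 and -0.59 at the top dose, with overlap. Its differences were 0.06, 0.08 and 0.19 by dose, and at the top dose the 95% interval was 0.01 to 0.38 (limma adjusted p = 0.270). No comparison gave a call for Ercc3.

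Ercc2 was barely measured. Its spot was well above background on 9 of the 19 arrays, with 1 of 5 controls, 2 of 5 at the low, 2 of 4 at the middle and 4 of 5 at the top dose, and its lung signal was 2 to 40 intensity units above local background. It ran from -0.55 to -0.14 in controls and from -0.39 to -0.19 at the top dose. Its differences were -0.07, -0.03 and 0.13 by dose (limma adjusted p = 0.455 at the top dose). At this signal a small change of Ercc2 was not detectable.

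Ercc1 and Ercc4 encode the partners of the nuclease that makes the 5′ cut. Ercc1 was at -1.34, -1.34, -1.28, -1.29 and -1.11 in controls and at -1.02, -1.14, -1.03, -1.03 and -1.14 at the top dose. Controls 1 to 4 lay below all 5 treated mice, and control 5 lay above 2 of them. At the low and middle dose it ran from -1.31 to -1.14 and from -1.39 to -1.14, and both overlapped the controls.

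The difference of Ercc1 at the top dose was 0.20 (95% interval 0.06 to 0.34, 1.15-fold, limma adjusted p = 0.103), which did not pass the threshold. At the low and middle dose it was 0.03 and -0.01. It passed with slide as a fixed block (0.24, limma adjusted p = 0.0208), with slide as a random block (0.22, adjusted p = 0.0182) and with scan day as a block (0.24, adjusted p = 0.0219). It also passed without control 5 (0.24, limma adjusted p = 0.0488). These fits overlap and are not separate support. Slide and scan day nearly coincide, and control 5 shares its slide and scan day with mouse 13 alone. Control 5 has no top dose lung on its slide and mouse 16 no control, so neither enters the comparison within slides. On the slides that hold both groups Ercc1 was higher at the top dose in 4 of 4, by 0.14 to 0.31. The same held for Xpc, Xpa, Ercc3, Ercc4 and Ercc5, and the share of all genes for which it held was not counted.

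Ercc4, the catalytic partner of Ercc1, ran from -0.07 to 0.34 in controls and from 0.12 to 0.41 at the top dose. Mouse 12 at the middle dose stood apart at 0.78, where the other 3 mice of that dose were at -0.05 to 0.21, and the array of this mouse is among those marked for evaluation. The differences were 0.04, 0.14 and 0.16 by dose (limma adjusted p = 0.572 at the top dose). Without mouse 12 the difference at the middle dose was -0.03. A second Ercc4 probe was well above background on 1 array and was not tested.

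**Figure D3:**
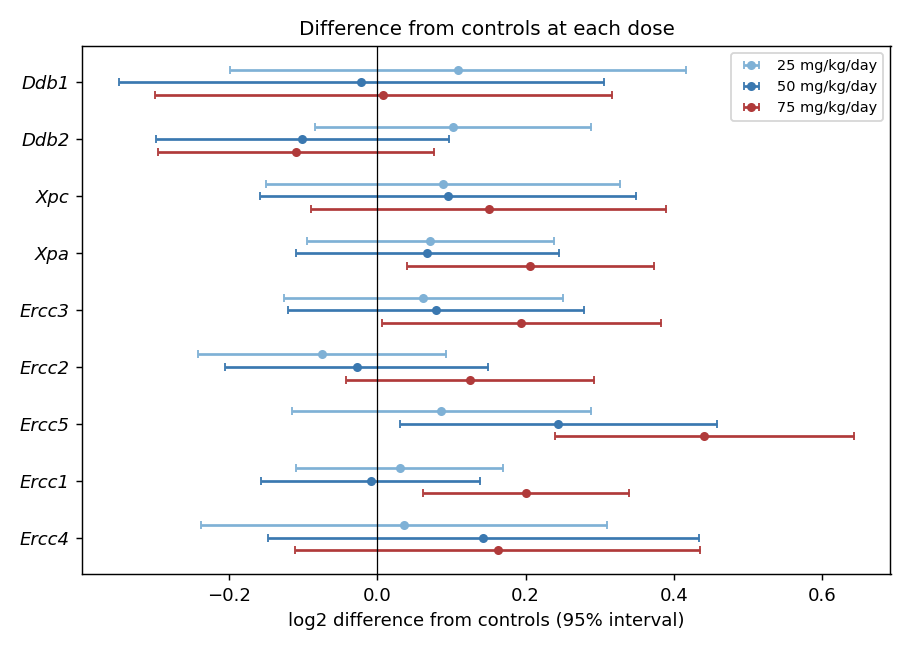
Log2 difference from controls (x axis) with its 95% interval from the limma fit for each of the 9 genes (y axis) at the low, middle and top dose. The intervals of Ercc5, Ercc1, Xpa and Ercc3 at the top dose lie above 0, and of these the adjusted p of Ercc5 was under 0.05.

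Beyond the 10 core genes, 41 other genes of the pathway were listed by step, and 38 of them were tested. At the top dose 3 of the 38 were called, all higher, against 4.18% of all genes. They were Polk, Hmgn1 and Gtf2h5. At this dose 22 of the 38 were above the control mean and 16 below, with a median difference of 0.02 beside -0.01 for all genes. Of all genes 47.9% were above. At the middle dose 2 were called, Polk and Hmgn1, beside 1.09% of all genes. At the low dose 0 were called, beside 0.0517% of all genes. At that dose 3 of the 38 had an unadjusted p under 0.05 in the limma fit, beside 7.83% of all genes. With dose as a number 3 of the 38 were called, beside 4.66% of all genes, again Polk, Hmgn1 and Gtf2h5. Of these, the trend of Hmgn1 kept its call in 26 of 33 alternatives. It lost it with array weights, without the arrays marked for evaluation and without control 3, 4 or 5 or mouse 16 or 19, with limma adjusted p of 0.0521 to 0.112. Between the top and the low dose 1 was called, Polk, beside 0.564% of all genes.

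Polk encodes DNA polymerase kappa, which fills repair gaps and copies past bulky adducts of guanine, and it rose at the upper doses. It was at -0.11 to 0.08 in controls, 0.07 to 0.37 at the low, 0.36 to 0.80 at the middle and 0.53 to 1.02 at the top dose. No mouse at the middle or top dose overlapped a control. The rise was 0.64 (limma adjusted p = 0.00437) at the middle and 0.85 ± 0.10 (SE, adjusted p = 4.37e-05) at the top dose, and the top dose lay 0.62 above the low dose (adjusted p = 0.00514). At the low dose the difference was 0.23 (limma adjusted p = 0.596), which did not pass. The call at the middle dose was lost without the arrays marked for evaluation (0.60, adjusted p = 0.0659) and with median centring (0.77, adjusted p = 0.490).

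Gtf2h5 encodes the smallest TFIIH subunit, which stabilises the complex and stimulates XPB. It was at -0.68 to -0.53 in controls, -0.63 to -0.51 at the low, -0.55 to -0.30 at the middle and -0.47 to -0.27 at the top dose. The top dose did not overlap the controls. The rise was 0.28 ± 0.06 (SE, limma adjusted p = 0.0140) at the top dose and 0.09 per 25 mg/kg/day over all doses (adjusted p = 0.00466). The call at the top dose was lost with the lung channel alone (0.24, limma adjusted p = 0.0582) and with median centring (0.86, adjusted p = 0.0631). Of the 8 TFIIH genes on this list it was the 1 called. At the top dose 7 of the 8 were above the control mean, beside 47.9% of all genes.

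Hmgn1, a nucleosome-binding protein that takes part in transcription-coupled repair, rose at the middle and top dose. It was at -0.96 to -0.50 in controls, -0.60 to -0.17 at the low, -0.42 to -0.11 at the middle and -0.46 to -0.11 at the top dose. The mice at the upper doses lay above all controls, and those at the low dose overlapped them. The rise was 0.48 (limma adjusted p = 0.0430) at the middle and 0.43 ± 0.11 (SE, adjusted p = 0.0233) at the top dose. At the low dose the difference was 0.36, which did not pass (limma adjusted p = 0.392). The call at the top dose was lost without the arrays marked for evaluation (0.43, limma adjusted p = 0.0707). It was also lost without control 3 (0.38, limma adjusted p = 0.0573), control 4 (0.37, adjusted p = 0.0629), mouse 16 (0.42, adjusted p = 0.0653) or mouse 19 (0.39, adjusted p = 0.0694), and that at the middle dose was kept in 17 of 33 alternatives. With median centring the difference was 0.77 at the middle dose, where it missed the threshold (limma adjusted p = 0.899), and 1.24 at the top dose. Hmgn1 has near-identical pseudogene copies, so its signal may include them.

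**Figure D4:**
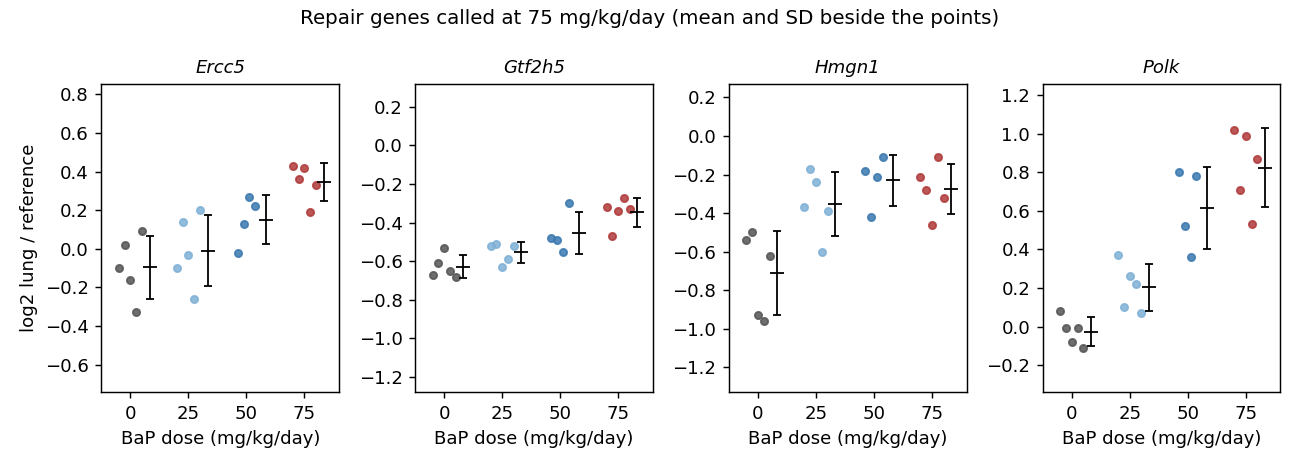
Log2 ratio of lung over reference (y axis) by BaP dose in mg/kg/day (x axis) for Ercc5, Gtf2h5, Hmgn1 and Polk, 1 point per mouse, with the mean and SD of each group beside the points. In each of the 4 panels the mice at the top dose lie above all controls, and Polk reaches 0.53 to 1.02 from -0.11 to 0.08. These genes are shown because they were called at the top dose, a choice that favours such separation. The share of all genes without overlap was not counted.

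No other step of the pathway had a called gene at the top dose. In damage recognition 0 of 6 further genes were called and among the subunits of RPA, which coats the single strands, 0 of 3. Gap filling and ligation had Polk as the 1 called of 17, and 10 of these 17 lay below the control mean. Of all genes 4.18% were called at this dose and 47.9% lay above the control mean. The largest differences that were not called were Pole2, a subunit of DNA polymerase epsilon, at -0.29 (limma adjusted p = 0.279), Rfc2, of the clamp loader, at -0.25 (adjusted p = 0.524), and Pold3, of DNA polymerase delta, at 0.23 (adjusted p = 0.179).

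**Figure D5:**
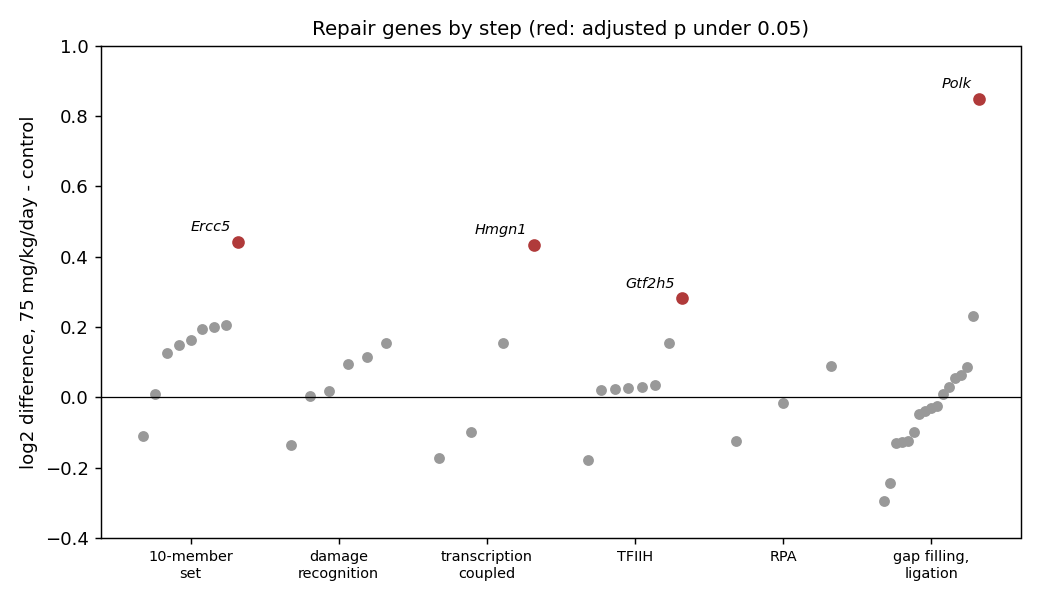
Log2 difference between the top dose and controls (y axis) for the 9 core genes and the 38 further genes tested, by step of the pathway (x axis), 1 point per gene, with called genes in red and named. The 4 called genes lie at 0.28 to 0.85, and the others between -0.29 and 0.23.

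Cdkn1a is the p53 target that encodes the cell cycle inhibitor p21. In the same lungs it was 1.36, 2.60 and 3.28 above controls at the low, middle and top dose. Mdm2, which encodes the ubiquitin ligase of p53, was 0.27, 0.79 and 1.12 above, and its value at the low dose did not pass the threshold (limma adjusted p = 0.659). At the top dose Xpc was 0.15 and Ddb2 -0.11 from controls. Activity of p53 was not measured, and its part in these values was not tested. These comparisons all share the same 5 control mice.

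Members varied together in part across the 19 arrays, which share slides and the reference RNA. The highest correlations between members were 0.70 for Ercc3 with Ercc5, 0.67 for Xpc with Ercc3 and 0.67 for Ddb1 with Ddb2, and the lowest was -0.63 for Xpc with Ercc4. Over the 12325 named genes that could be compared, the profile most like that of Ercc5 was Parvb (r = 0.87), followed by Marchf5 (0.85), Exoc4 (0.85), Mapk9 (0.83) and Carhsp1 (0.82). The profile of Xpc was most like Irak1 (r = 0.88), Plcb3 (0.87), Mrps15 (0.87), Capzb (0.87) and Gnas (0.87). That of Ddb2 was most like Exosc8 (0.89), Rpl4 (0.82), Hdac7 (0.82), Prkdc (0.80) and Pms2 (0.78). These are descriptions over the arrays with no test.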

How the data were processed

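Lung RNA of 19 mice was measured on 2-colour Agilent arrays, 1 per mouse, on 6 slides scanned on 5 days. The authors deposited the spot intensities that Feature Extraction 10.7.3.1 wrote, a version taken from the file headers. The authors' deposited table holds log2 ratios, which matched lung over reference from the scanner values (r = 0.995 to 0.998) with column medians of -0.053 to -0.033, and its centring is not given in the sources used. Median spot and background intensities were corrected by normexp (offset 50) and normalized by loess with limma 3.58.1 in R 4.3.3. Control spots had weight 0, spots flagged as outliers (0.290%) were left out and 0 were saturated. Of 41174 probes, 23374 were named by accession through RefSeq's table for GRCm38.p6. The array headers name another build, so no gene coordinates are given. A probe was kept (24514) if 4 or more arrays showed it well above background for the lung, and each gene took its brightest probe (19328 genes).

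A mean per group, and separately dose as a number, were fitted over all 19 arrays with lmFit and eBayes. P-values measure the spread between mice, which the labels number separately. The scripts were tested on simulated data with no slide effect. Of 100 genes set to rise by 0.4 at the top dose 33 were called, and of 100 set to rise by 1, 90. Of the genes left unchanged 6 were called. A true difference of 0.4 or less could thus often be missed. The members and lists were chosen with earlier results of these data known. All members are named, with the other pathway genes called in any comparison or largest in difference at the top dose, and the 5 genes most like Xpc, Ddb2 and Ercc5. Alternatives changed the background, scaling, filter, probe choice, blocks and arrays used. Of the 5 mice that the design text gives each group, 4 at the middle dose were analysed here.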

Additional observations from a re-analysis of the deposited data

Results flagged for a closer look

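In 60 groups of 4 or 5 mice (members, the second Xpc probe, other called repair genes, Cdkn1a and Mdm2), 4 values stood apart from the rest of their group by Dixon's test, which chance gives in about 1 of 20 groups. Ercc1 was at -1.11 in control 5 and at -1.34 to -1.28 in the other controls. Ddb2 was at -0.24 in mouse 19 at the top dose and at -0.50 to -0.45 in the others. Xpa was at 0.21 in mouse 7 at the low dose and at -0.03 to 0.02 in the others. Cdkn1a was at 0.86 in mouse 14 at the middle dose and at 1.35 to 1.45 in the others.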

How the results depend on the processing

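Scaling between arrays (Aquantile) leaves log ratios as they are and is not counted here. Over the other 33 alternatives the number of members called was 0 at the low dose, 0 at the middle dose and 1 in the trend. At the top dose it was 1 in 28 of them. It was 2 with slide as a fixed or random block or scan day as a block, and 0 without the arrays marked for evaluation. Leaving out 1 mouse at a time gave 1 to 2, with 2 without control 5. The fits with 2 overlap, as control 5 shares its slide and scan day with mouse 13 alone. Between the top and the low dose the number called was 1 (Ercc5) with slide as a random block and 0 otherwise. The cause was not tested. Ercc5 was called at the top dose in 32 of 33 and in the trend in 33 of 33. Not all of these could move its difference at the top dose. Leaving out a mouse of the low or middle dose left it at 0.44, and so did changing the filter or probe choice. Those fits changed the spread or the adjustment alone.

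Small differences changed sign. Median centring moved the median of all genes to 0.15, 0.14 and 0.35 by dose and 0.11 in the trend. With it Ddb1 was at 0.25 at the middle dose and 0.19 in the trend, Ddb2 at 0.070, 0.29 and 0.071 at the middle and top dose and in the trend, and Ercc1 at 0.27 at the middle dose, so Ddb2 stayed below the median of all genes each time. With the lung channel alone Ddb1 was at 0.018 in the trend, Ddb2 at 0.0083 and 0.019 at the middle and top dose, Ercc1 at -0.0062 at the low dose and Ercc2 at 0.076 at the middle dose. Ddb1 at the top dose was at -0.0039 with no background correction, -0.026 with the authors' deposited ratios, -0.017 and -0.0086 with slide as a fixed and random block and -0.019 with scan day as a block. Ercc1 at the middle dose was at 0.044 with processed signals, and Ercc4 at the low dose at -0.00056 with slide and -0.0010 with scan day as a fixed block. Leaving out 1 mouse at a time gave Ddb1 -0.11 to 0.058 at the middle dose, -0.078 to 0.087 at the top dose and -0.036 to 0.011 in the trend. It gave Ercc1 -0.056 to 0.032 and Ercc2 -0.066 to 0.037 at the middle dose, and Ercc4 -0.040 to 0.090 at the low and -0.027 to 0.25 at the middle dose.

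Over all genes, the calls at the top dose ranged from 454 to 1847, beside 807 (512 higher). With median centring they were 535 (532 higher), and with slide as a fixed block 1778 (988 higher). At the middle dose they ranged from 9 to 642 beside 211, at the low dose from 0 to 41 beside 10, between the top and the low dose from 12 to 299 beside 109, and in the trend from 589 to 1897 beside 900. Ercc2 had no value when spots had to be above background on all 19 arrays. Mouse numbers are not shared between groups, so mice were compared within slides, by slide as a block. The signal of Ercc2 lay near background, and 4 or 5 arrays per group limit the precision of all members.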
